A study of Homo sapiens with 2 samples.

Results

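The barcodes described here carried an unusually large share of RNA from MT-RNR2, the gene of the 16S ribosomal RNA of mitochondria. They came from single-cell libraries of MDA-MB-231, an established human triple-negative breast cancer line, and were chosen by their UMI totals and their MT-RNR2 counts, as the cell barcodes with at least 500 UMIs and 300 genes in which MT-RNR2 took at least 5% of the UMIs. UMIs (unique molecular identifiers) are random tags that mark single captured transcripts. The rule found 146 of the 1991 barcodes that met the minimum, 99 of 1000 in the 0 mM library and 47 of 991 in the 2 mM library. Both libraries came from cells kept for 30 days in high-glucose medium as flat cultures, at 0 mM or 2 mM metformin, and then grown for 10 days as floating mammospheres. Metformin is a biguanide drug of type 2 diabetes, and complex I of the respiratory chain is among its known targets. Each dose had 1 library of this single cell line, so no test was run, no p-value is given, and all intervals are 95% intervals that cover counting error only. MT-RNR2 as a share of the UMI total chose the set, under a minimum that all barcodes compared had met. Values of MT-RNR2 and of depth are therefore a description.

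Mitochondria keep a small genome of their own. It encodes the 2 ribosomal RNAs MT-RNR1 (12S) and MT-RNR2 (16S), transfer RNAs, and 13 protein subunits of the respiratory chain and of ATP synthase, whose mRNAs are counted here by gene. The strands are copied into long precursors from which the single RNAs are cut, and a mitochondrial double membrane separates these RNAs from the cytosol. Nuclear DNA holds many old copies of the mitochondrial genome, and the MTRNR2L genes are copies of MT-RNR2. In single-cell libraries, a low UMI total with a high mitochondrial share is commonly used as a sign of a damaged cell, while MALAT1, a long non-coding RNA held in nuclear speckles, is commonly used as a sign of nuclear RNA.

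Reads of MT-RNR2 and of its nuclear copies can be alike, to a degree that differs between copies. The stretch of MT-RNR2 that encodes the small peptide humanin is therefore shown with the matching stretch of the 5 copies with the most UMIs. The sequences are from GENCODE 29 transcripts (GRCh38), 5′ to 3′, and capitals in the copies mark bases that differ from MT-RNR2.
MT-RNR2: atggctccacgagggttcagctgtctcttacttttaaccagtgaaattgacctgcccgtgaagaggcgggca
MTRNR2L12: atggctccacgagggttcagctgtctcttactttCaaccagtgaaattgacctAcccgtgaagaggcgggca
MTRNR2L2: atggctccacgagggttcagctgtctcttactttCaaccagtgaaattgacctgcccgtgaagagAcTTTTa
MTRNR2L8: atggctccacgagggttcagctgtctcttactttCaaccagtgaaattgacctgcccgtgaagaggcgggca
MTRNR2L1: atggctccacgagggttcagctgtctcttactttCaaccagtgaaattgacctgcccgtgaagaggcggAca
MTRNR2L3: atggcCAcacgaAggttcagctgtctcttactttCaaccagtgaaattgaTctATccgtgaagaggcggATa
Of these 72 bases, MTRNR2L8 differed from MT-RNR2 at 1, MTRNR2L12 and MTRNR2L1 at 2 each, MTRNR2L2 at 6 and MTRNR2L3 at 9. The MTRNR2L2 entry of GENCODE is only 87 bases long. Over their alignable length, MTRNR2L12 was 95.3% identical to MT-RNR2, MTRNR2L8 93.2%, MTRNR2L1 89.5% and MTRNR2L3 84.7%. MT-RNR2 is also rich in A, and the 35-base window below, from position 773 of its 1559 bases, holds its longest A tract in capitals.
MT-RNR2 A tract: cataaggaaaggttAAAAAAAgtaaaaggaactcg
A made up 35.1% of MT-RNR2 and 33.0% of MT-RNR1, whose longest tract has 6 bases. A tract of 7 A (AAAAAAA, searched on the transcript strand) stood in 24.6% of the 10215 GENCODE transcripts of 1400 to 1700 bases, so it does not set MT-RNR2 apart.

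The MT-RNR2-rich barcodes were shallow, with a few exceptions. In the 0 mM library their UMI total had a median of 1019 (774 to 3145), against 3755 (896 to 23485) in the other 901 barcodes. In the 2 mM library the median was 690 (517 to 7104), against 2660.5 (511 to 22557) in the other 944 barcodes. The deepest member at 2 mM, with 7104 UMIs, held 15.4% of all UMIs of its set. MT-RNR2 took a median of 12.5% of the UMIs at 0 mM (5.10% to 36.5%) and 12.9% at 2 mM (5.06% to 42.3%), against 1.11% and 1.13% in the other barcodes. The limit of 5% cut through a thinly filled range rather than a gap. Just inside it lay barcodes at 5.10% and 5.17% (0 mM) and at 5.06% and 5.26% (2 mM), and just outside it barcodes at 4.97% and 4.69% (0 mM) and at 4.97% and 4.88% (2 mM).

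**Figure D1:**
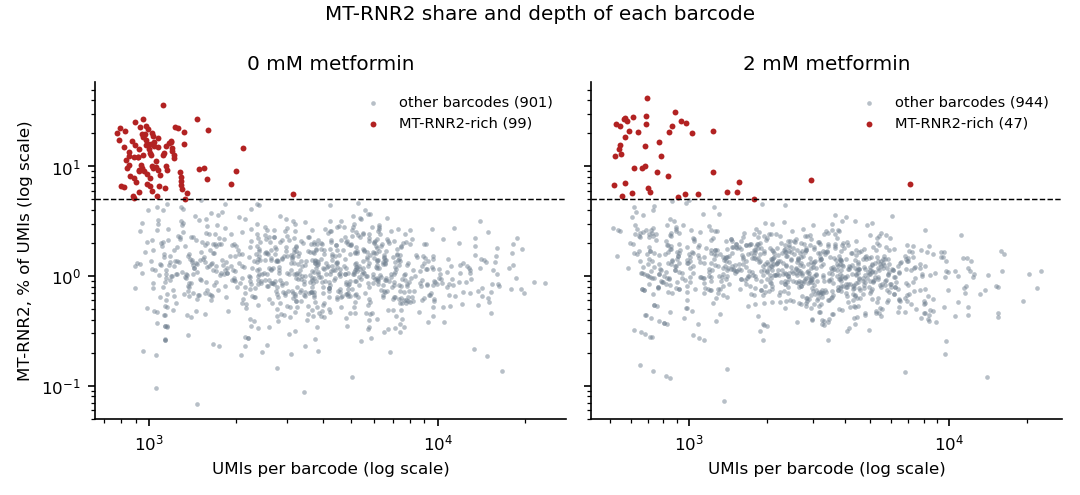
Share of MT-RNR2 in the UMIs of each barcode (y axis, log scale) against its UMIs (x axis, log scale), with 1 point per barcode and a dashed line at 5%. The 99 and 47 MT-RNR2-rich barcodes (red) crowd at the shallow end of both libraries, and only 3 and 2 of them reach 2000 UMIs.

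At 0 mM the set made up 9.90% of the barcodes (8.12% to 11.9%), and at 2 mM 4.74% (3.51% to 6.26%). Among barcodes of 500 to under 1000 UMIs it made up 44 of 56 at 0 mM (78.6%) and 37 of 191 at 2 mM (19.4%), and among those of 1000 to under 1500 UMIs 48 of 162 (29.6%) and 5 of 115 (4.35%). From 1500 to under 2000 UMIs it made up 4 of 81 and 3 of 97, and from 2000 UMIs up 3 of 701 and 2 of 588. Only under 1000 UMIs at 0 mM were most barcodes MT-RNR2-rich, and that range is cut short there. The table holds 1000 barcodes of each library, and the shallowest had 774 UMIs at 0 mM. With the same floor of 774 UMIs at 2 mM, 19 barcodes remained, 2.15% of 884.

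The 2 libraries held 4403045 and 3264343 UMIs in barcodes that met the minimum. No barcode sequence occurred in both. None of the 99 and 47 MT-RNR2-rich barcodes lay 1 base from another barcode of its library, whereas 111 (12.3%) and 164 (17.4%) of the other barcodes did. Markers of other cell types were at or near 0 in the MT-RNR2-rich barcodes: 3 of the 5 leukocyte markers were in the table, with 0 UMIs at 0 mM and 1 at 2 mM (CD14), and 5 of 5 fibroblast markers, with 1 UMI (PDGFRB) and 0. The 4 endothelial and 3 red cell markers had no row in the table. The markers of MDA-MB-231 were all present, with VIM, the intermediate filament of mesenchymal cells, at 3022 CPM at 0 mM and 1468 CPM at 2 mM. In the other barcodes VIM stood at 3472 and 1690 CPM. Of the 5 markers, 4 were lower in the set than in the other barcodes at 0 mM and 5 at 2 mM, none of them 2-fold. Their median log2 ratio was -0.61 and -0.55, against 0.05 and 0.19 over all nuclear-encoded genes compared. CPM here means UMIs per 1000000 UMIs of nuclear-encoded genes, summed over the barcodes of a set, with all mitochondrial and MTRNR2L genes left out of the total.

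Counted per barcode, the set held far less nuclear-encoded RNA than the other barcodes and more MT-RNR2. The mean nuclear-encoded content was 926 UMIs at 0 mM, against 4515 in the other barcodes (0.205 times), and 783 at 2 mM, against 3232 (0.242 times). MT-RNR2 reached 144 UMIs per barcode against 59.1 at 0 mM (2.43 times, 2.39 to 2.48), and 129 against 39.4 at 2 mM (3.28 times, 3.19 to 3.37). The share of MT-RNR2 chose the set, under a UMI minimum that the other barcodes also met, so these MT-RNR2 values are a description. The mRNAs of cytosolic ribosomal proteins stood at 0.178 and 0.227 times the level of the other barcodes, close to the ratio of all nuclear-encoded RNA. MALAT1 was less reduced, at 38.1 UMIs against 114 at 0 mM (0.334 times) and 36.9 against 57.1 at 2 mM (0.647 times). Among possible causes, less RNA per cell and less efficient capture cannot be told apart in these counts. Whether each barcode held a cell was not tested.

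The label calls these barcodes rich in mitochondrial rRNA, but only 1 of the 2 rRNAs was much higher at 0 mM. The set is therefore named after MT-RNR2 here. MT-RNR1, the rRNA of the small subunit, stood at 862 CPM in the set and 653 CPM in the other barcodes at 0 mM (ratio 1.32, 1.04 to 1.65), and at 3045 and 848 CPM at 2 mM (ratio 3.59, 2.94 to 4.34). MT-RNR2, which chose the set, was 11.9 and 13.5 times higher on the same scale. For each 1000 UMIs of MT-RNR2 there were 49.8 UMIs of MT-RNR1 in the other barcodes at 0 mM and 5.55 in the set. At 2 mM the numbers were 69.6 and 18.5.

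The 13 mitochondrial mRNAs went opposite ways in the 2 libraries. At 0 mM, 10 of 13 had a ratio below 1 and none was called, that is, none differed 2-fold or more. Their median log2 ratio was -0.33, against 0.05 over all nuclear-encoded genes compared. At 2 mM all 13 had a ratio above 1 and 7 were called higher, with a median log2 ratio of 1.29, against 0.19 over all genes. Of the nuclear-encoded genes compared, 8.5% were called higher at 0 mM and 20.2% at 2 mM. With a limit of 3% MT-RNR2 in place of 5%, the median of the 13 mRNAs at 0 mM was 0.08.

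MT-CO1, the catalytic subunit of complex IV, stood at 2979 CPM in the set and 5868 CPM in the other barcodes at 0 mM (ratio 0.508, 0.449 to 0.572). At 2 mM it stood at 11419 and 7092 CPM (ratio 1.61, 1.46 to 1.77). MT-CO1 was thus the lowest of the 13 by ratio at 0 mM and on the other side of 1 at 2 mM. MT-ND3, a core subunit of complex I, had ratios of 0.595 (0.482 to 0.726) and 2.91 (2.45 to 3.43). MT-ATP8, a subunit of ATP synthase whose reading frame overlaps that of MT-ATP6, had the highest ratio of the 13 at 2 mM, 4.94 (4.05 to 5.97), and a ratio of 1.17 (0.856 to 1.56) at 0 mM. MT-ATP6 itself had ratios of 0.780 and 2.44. MT-ND6, the only mRNA of the 13 copied from the other strand, had ratios of 1.21 (0.736 to 1.89) and 3.82 (2.56 to 5.51). Whether counting used strand is not given in the sources used here, so overlapping and antisense mitochondrial transcripts carry uncertain counts.

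**Figure D2:**
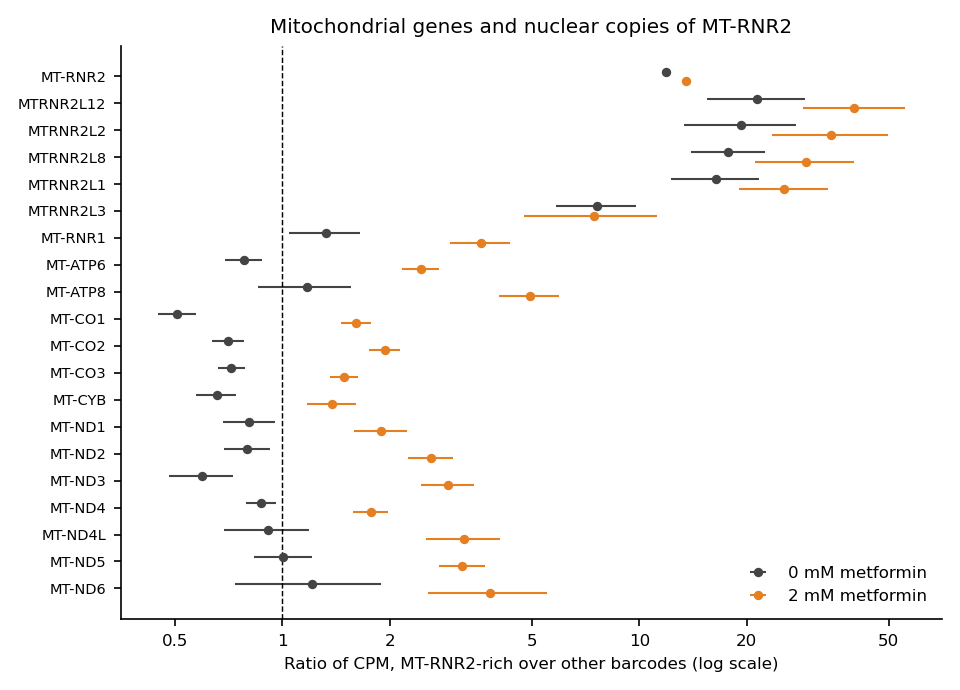
Ratio of CPM in MT-RNR2-rich over other barcodes of the same library (x axis, log scale) for mitochondrial genes and nuclear copies of MT-RNR2 (y axis), with 95% intervals for counting error. All 13 mRNAs lie above 1 at 2 mM (orange), whereas 10 of 13 lie below 1 at 0 mM (grey).

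The same opposition was seen per barcode. Mitochondrial mRNAs took a median of 2.09% of UMIs in the set at 0 mM (0.825% to 23.8%), against 3.78% in the other barcodes. At 2 mM they took 4.85% (1.72% to 34.9%), against 3.87%. The lowest member at 2 mM was still above the lower quartile of the members at 0 mM, 1.58%. In UMIs per barcode the mRNAs stood at 27.8 against 186 at 0 mM (0.149 times) and at 62.9 against 133 at 2 mM (0.471 times). A few barcodes stood apart: 1 member at 0 mM and 7 at 2 mM had 8% or more of their UMIs from mitochondrial mRNAs. Without them the median log2 ratio of the 13 mRNAs was -0.41 at 0 mM and 0.91 at 2 mM, and without the deepest member of each library it was -0.34 and 1.32. With the floor of 774 UMIs in both libraries the 2 mM median was 1.5. Within the set, the share of MT-RNR2 and that of the mRNAs had a rank correlation of -0.05 over 99 barcodes at 0 mM and -0.40 over 47 at 2 mM. The shares have the same UMI total below the line, which by itself ties them.

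**Figure D3:**
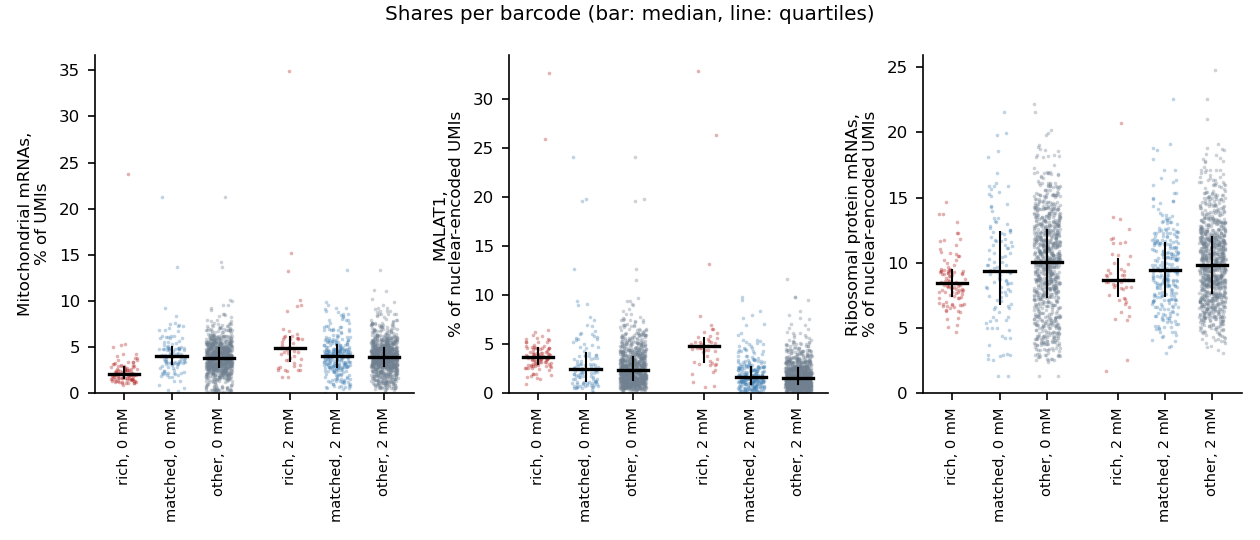
Shares per barcode of mitochondrial mRNAs (left, % of all UMIs), MALAT1 (middle) and ribosomal protein mRNAs (right, both % of nuclear-encoded UMIs), with 1 point per barcode, for MT-RNR2-rich barcodes, other barcodes of matched depth and all other barcodes of each library. The median of mitochondrial mRNAs in the set is below that of the others at 0 mM (2.09% against 3.78%) and above it at 2 mM (4.85% against 3.87%).

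The nuclear copies of MT-RNR2 were high in the set as well, and since their reads resemble those of MT-RNR2, which chose the set, their values are a description. MTRNR2L12 stood at 666 CPM in the set and 31.2 CPM in the other barcodes at 0 mM (ratio 21.3, 15.4 to 29.2), and at 1550 and 38.7 CPM at 2 mM (ratio 40.1, 28.7 to 55.4). MTRNR2L2 had ratios of 19.3 and 34.5, MTRNR2L8 17.8 and 29.2, and MTRNR2L1 16.4 and 25.5. In the other barcodes nearly all copies were below 100 CPM, the minimum for comparison, and so entered only through the set. With that minimum on the other barcodes, 1 copy was compared at 0 mM and 0 at 2 mM. MTRNR2L3, the copy with the most differences from MT-RNR2 in the stretch shown above, had the lowest ratios of the 5, 7.61 and 7.46. For each 1000 UMIs of MT-RNR2, MTRNR2L12 had 4.29 UMIs in the set and 2.38 in the other barcodes at 0 mM, and 9.40 and 3.17 at 2 mM. MTRNR2L3 moved the other way, with 5.06 and 7.88 at 0 mM and 4.12 and 7.48 at 2 mM. Across members, the shares of MT-RNR2 and of the summed MTRNR2L genes had a rank correlation of 0.67 at 0 mM and 0.78 at 2 mM. How the authors' counting placed reads that fit both MT-RNR2 and a copy is not given in the sources used here, so these counts are uncertain.

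Among nuclear-encoded genes, calls depended strongly on which genes entered. With at least 100 CPM in either set and 50 UMIs over both, 216 of 2542 genes compared were called higher (8.5%) and 122 lower (4.8%) at 0 mM. At 2 mM, 598 of 2956 were called higher (20.2%) and 354 lower (12%). A gene can pass this minimum only through its level in the small set, which favours high ratios. With the minimum applied to the other barcodes alone, 41 of 2060 genes were called higher (1.99%) and 122 lower (5.92%) at 0 mM, and 116 of 2100 (5.52%) and 354 (16.9%) at 2 mM. Many of the low calls rest on few UMIs: with an interval that also leaves out 1, 41 were called higher (1.99%) and 88 lower (4.27%) at 0 mM, and 100 (4.76%) and 107 (5.1%) at 2 mM. So at 2 mM the calls beyond counting error were about as many in each direction. This filter is harder to pass for low ratios, which rest on fewer UMIs in the set. From 500 CPM in the other barcodes, it left 3 higher and 27 lower at 2 mM. Against other barcodes of matched depth, 26 of 767 genes were called higher (3.39%) and 17 lower (2.22%) at 0 mM, and 59 of 1107 (5.33%) and 137 (12.4%) at 2 mM. These barcodes were matched by range only and were still deeper than the members. Their median of nuclear-encoded UMIs was 1108 against 842 at 0 mM and 874.5 against 547 at 2 mM. Scaling by TMM factors gave 171 higher and 164 lower at 0 mM and 440 and 501 at 2 mM, and scaling by all UMIs, mitochondrial ones included, 100 and 189, and 270 and 474. These scalings moved the median log2 ratio over all genes from 0.05 to -0.05 and -0.16 at 0 mM and from 0.19 to -0.02 and -0.20 at 2 mM, so list medians are read here against that of all genes. At 500 CPM or more in the other barcodes, 0 of 260 genes were called higher and 2 lower (0.769%) at 0 mM, and 3 of 264 (1.14%) and 27 (10.2%) at 2 mM. Of the 2202 genes compared in both libraries, 109 were called higher at 0 mM and 192 at 2 mM. Of these, 49 were called higher in both, 45.0% of those so called at 0 mM and 25.5% at 2 mM. On the low side, 103 of the 2202 were called at 0 mM and 335 at 2 mM, with 23 in both, 22.3% and 6.87%. Whether these overlaps differ from the shares called over all 2202 genes was not tested.

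To name genes, those with intervals above 1 in both libraries were ranked by the interval bound nearest 1 in the weaker library, which favours well-counted genes over high ratios. The first 12 by this rank are described. All have long transcripts, with a median of 8660 bases (5891 to 12678) for the longest of each gene. For the first 12 on the low side the median was 1647 bases (868 to 3745). MALAT1 stood at 41154 and 25282 CPM at 0 mM (ratio 1.63, 1.58 to 1.68), and at 47170 and 17658 CPM at 2 mM (ratio 2.67, 2.55 to 2.80). MALAT1 had by far the most UMIs of these genes, 3772 and 1735 in the set. ARID4A, a chromatin protein that binds RB, had ratios of 2.86 (1.86 to 4.22) and 3.22 (1.65 to 5.71). The mitotic genes CENPF (1.83 and 2.89) and MKI67 (1.98 and 3.48), the Golgi tether GOLGA4 (1.83 and 2.60), the microtubule protein MAP1B (2.17 and 2.20), ANKRD12 (2.03 and 2.49) and the polymerase III factor subunit BDP1 (2.24 and 3.39) followed, with ratios at 0 mM and 2 mM. CENPE, a mitotic kinesin, had ratios of 2.24 and 4.52, but with an MT-RNR2 limit of 10% its log2 ratio at 2 mM was -0.24. The ciliary CEP290 (2.77 and 4.33), CRIM1 (2.77 and 3.15) and the proteasome activator PSME4 (2.89 and 3.35) were below 100 CPM in the other barcodes of both libraries, and CENPE at 2 mM, so they entered only through the set, where they are high. Against other barcodes of matched depth, MALAT1 had a log2 ratio of 0.30 at 0 mM and 1.24 at 2 mM, and CENPF 1.63 and 1.11.

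The genes first by the same rank on the low side included well-counted ones that did not reach 2-fold in either library. TIMP1, an inhibitor of metalloproteinases, stood at 1746 CPM in the set and 2568 in the other barcodes at 0 mM (ratio 0.680, 0.578 to 0.795), and at 1658 and 2878 CPM at 2 mM (ratio 0.576, 0.440 to 0.741). The class I antigen-presenting chain HLA-C (0.637 and 0.526) and the protease inhibitor CST3 (0.667 and 0.568) were likewise short of 2-fold in both, and the membrane-binding ANXA2 (0.696 and 0.413) at 0 mM. NDUFB4, an accessory subunit of complex I, had 4 UMIs in the set at 0 mM and 1 at 2 mM (ratios 0.215, 0.0584 to 0.552, and 0.144, 0.00365 to 0.807). LSM4, of the Sm-like ring that binds U6 RNA and decaying mRNA, had 9 UMIs at 0 mM (ratio 0.376, 0.171 to 0.716) and none at 2 mM, where it stood at 294 CPM in the other barcodes. The spliceosomal SNRPD2 (0.515 and 0.504), the peroxidase PRDX4 (0.379 and 0.272), PPDPF (0.437 and 0.348) and the mitochondrial matrix protein C1QBP (0.511 and 0.245) were also among the 12.

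Ratios were higher for genes of longer transcripts, taken as the longest in GENCODE. Over the genes with at least 100 CPM in the other barcodes, of which 95.3% and 95.1% matched a transcript, the rank correlation of ratio and length was 0.46 over 1963 genes at 0 mM and 0.36 over 1997 at 2 mM. Genes are not independent replicates. At 0 mM the median log2 ratio went from -0.37 in the shortest of 5 equal groups of genes (381 to 1596 bases) to 0.33 in the longest (5075 to 27174 bases). At 2 mM it went from -0.45 (381 to 1596 bases) to 0.30 (5310 to 24828 bases). In the shortest group 64 of 393 genes at 0 mM and 86 of 400 at 2 mM had a ratio above 1, and in the longest 287 of 393 and 249 of 400. Within each of 3 equal groups of genes by level in the other barcodes the correlation lay between 0.44 and 0.49 at 0 mM and between 0.32 and 0.38 at 2 mM. Against other barcodes of matched depth it was 0.37 and 0.31. Base composition moved with it: the rank correlation of ratio and GC content was -0.29 at 0 mM and -0.16 at 2 mM. For A content it was 0.36 and 0.22, and for the span of the gene 0.38 and 0.28. The part of base composition and of gene span in the length pattern was not tested.

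**Figure D4:**
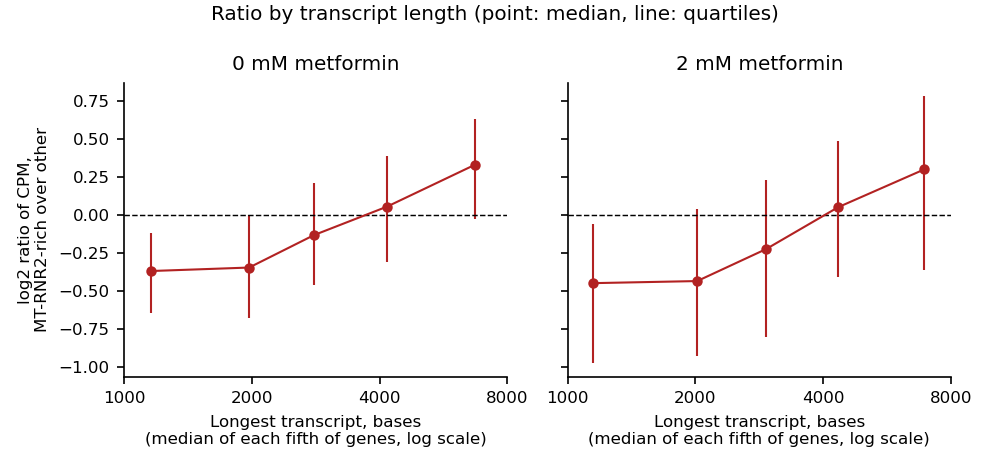
Median log2 ratio of CPM, MT-RNR2-rich over other barcodes (y axis, lines span the quartiles), for 5 equal groups of genes by the length of their longest GENCODE transcript (x axis, log scale). The median goes from -0.37 to 0.33 at 0 mM and from -0.45 to 0.30 at 2 mM.

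Nuclear RNAs did not share 1 direction of change. MALAT1 was the clear case. NEAT1, the scaffold of paraspeckles, stood at 840 CPM in the set and 787 in the other barcodes at 0 mM (ratio 1.07, 0.840 to 1.34) and at 1305 and 975 CPM at 2 mM (ratio 1.34, 0.985 to 1.78). TUG1 had ratios of 2.24 on 10 UMIs and 0.413 on 1 UMI, and KCNQ1OT1 2.02 on 2 UMIs and 4.81 on 4 UMIs, so these are hardly measured. PVT1 had 1 UMI in each library and MIAT none. The list of mRNAs known to keep introns or to sit in speckles had 15 of 21 members with a ratio above 1 in each library, with 1 called higher and 1 lower at 0 mM and 5 and 1 at 2 mM. Its median log2 ratio was 0.23 and 0.37, against 0.05 and 0.19 over all genes, and its shares called higher were near or below the 8.5% and 20.2% of all genes. LUC7L3, a splicing factor of that list, had ratios of 1.47 (1.12 to 1.88) and 2.41 (1.71 to 3.32), and SRRM2, a scaffold of speckles, 1.38 and 2.10. DDX5, an RNA helicase, was on the other side with 0.862 and 0.735.

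The snoRNA host genes, whose spliced RNAs are exported to the cytosol and largely decay there, had 5 of 7 members below 1 at 0 mM and 5 of 9 at 2 mM, with median log2 ratios of -0.21 and -0.12. GAS5 stood at 600 CPM in the set and 781 in the other barcodes at 0 mM (ratio 0.768, 0.578 to 1.0), and at 272 and 574 CPM at 2 mM (ratio 0.473, 0.227 to 0.873). SNHG5 (0.902 and 0.904), SNHG8 (0.603 and 1.01), SNHG1 (0.480 and 1.30), SNHG3 (0.456 and 0.896) and ZFAS1 (0.865 and 0.922) were mostly below 1. SNHG6 had ratios of 1.30 and 0.834, SNHG7 1.12 and 1.97, SNHG12 1.71 and 2.65, SNHG15 1.54 and 2.15, and SNHG16 1.24 and 2.23, on 3 to 42 UMIs each. Of replication-dependent histone genes, HIST1H4C stood at 1069 CPM in the set and 462 in the other barcodes at 0 mM (ratio 2.31, 1.87 to 2.84), and at 680 and 377 CPM at 2 mM (ratio 1.80, 1.16 to 2.68). HIST1H2AC had ratios of 2.33 (1.29 to 3.91) on 15 UMIs and 1.46 on 4 UMIs. HIST1H2BK had 1.25 and 0.427, the latter on 2 UMIs.

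Nuclear-encoded mRNAs of the respiratory chain were mostly below 1 in both libraries. Of complex I, 29 of 33 members had a ratio below 1 at 0 mM with 4 called lower, and 22 of 34 at 2 mM with 7 called lower and 1 higher. The median log2 ratio was -0.39 and -0.26. Of complexes II to V, 32 of 36 were below 1 at 0 mM with 2 called lower, and 30 of 37 at 2 mM with 9 called lower. Their median was -0.41 in each library. Of all genes, 4.8% and 12% were called lower. Against other barcodes of matched depth, complex I had a median of -0.57 at 0 mM (1 of 11 called lower) and of -0.05 at 2 mM (3 of 18 lower), and complexes II to V of -0.32 and -0.25. The medians of all genes there were -0.07 and -0.16, with 2.22% and 12.4% called lower. So at 2 mM the median of complex I was not lower than that of all genes by this comparison. ATP5A1 and ATP5C1, the alpha and gamma subunits of ATP synthase, had ratios of 0.632 and 0.530, and of 0.637 and 0.490, while UQCRB, a small subunit of complex III, had 1.21 and 1.36. By median ratio against all other barcodes, mitochondrial and nuclear mRNAs of the chain lay on opposite sides of 1 at 2 mM. At 0 mM their medians lay on the same side. Of complex I, 12 of 34 members were above 1 at 2 mM.

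Other cytosolic groups were also below 1 on balance. Mitochondrial ribosomal proteins had medians of -0.21 (7 of 43 called lower) and -0.50 (12 of 47 lower and 2 higher), against 4.8% and 12% of all genes called lower. Their median was 0.09 at 0 mM against others of matched depth, on 3 genes, and at 2 mM 0.00 with an MT-RNR2 limit of 10% and -0.022 from 1000 UMIs, so its direction was not stable. Proteasome subunits had medians of -0.36 (1 of 25 lower) and -0.82 (8 of 25 lower), with PSMB6, the beta 1 catalytic subunit, at ratios of 0.430 and 0.545. Glycolysis had medians of -0.31 (0 of 13 called) and -0.74 (2 of 13 lower and 1 higher). GAPDH had ratios of 0.743 and 0.546, and LDHA, lactate dehydrogenase A, 0.805 and 0.484. HLA class I and peptide loading had medians of -0.46 and -0.55, and ferritin and NRF2 targets -0.47 and -0.42. FTL, the light chain of ferritin, stood at 9328 CPM in the set and 11814 in the other barcodes at 0 mM (ratio 0.790, 0.737 to 0.845), and at 5764 and 9293 CPM at 2 mM (ratio 0.620, 0.539 to 0.710). Cytosolic ribosomal proteins were nearer to all genes, with medians of -0.21 (59 of 72 below 1, 1 called higher) and -0.09 (40 of 71 below 1, 3 higher and 1 lower).

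The cell cycle, interferon and stress lists varied in direction with the comparison set and the scaling. Of all genes compared, 8.5% were called higher and 4.8% lower at 0 mM, and 20.2% and 12% at 2 mM. The G2/M list had medians of 0.17 and 0.06, with 4 members called higher and 1 lower of 33 at 0 mM and 7 and 5 of 28 at 2 mM. Scaled by all UMIs, its median was -0.01 and -0.33. Against other barcodes of matched depth it was 0.62 (11 of 12 above 1, 3 called higher) and 0.85 (7 of 11 above 1, 4 higher and 2 lower), against -0.07 and -0.16 over all genes. Of all genes in that comparison, 3.39% and 5.33% were called higher and 2.22% and 12.4% lower. High members of the G2/M list included the long CENPF, CENPE and MKI67 (8612 to 12678 bases), and its low ones UBE2C (ratios 0.752 and 0.112, the latter on 1 UMI), CKS2 (0.798 and 0.428) and HN1 (0.584 and 0.528). Interferon response genes had medians of -0.07 (0 of 17 called) and -0.31 (2 of 21 higher and 5 lower), with ISG15 at ratios of 0.738 (0.627 to 0.863) and 0.481 (0.324 to 0.687). Hypoxia targets were all above 1 at 0 mM (7 of 7, 1 called higher, median 0.58) and 6 of 11 at 2 mM (2 higher and 3 lower, median 0.01). With the minimum on the other barcodes only, 6 of 6 were above 1 at 0 mM with 0 called (median 0.47), and 2 of 7 at 2 mM with 0 called higher and 3 lower (median -0.91). Of all genes under that minimum, 1.99% and 5.52% were called higher and 5.92% and 16.9% lower. Genes of p53 and apoptosis had medians of 0.19 and -0.61, and PMAIP1, the apoptosis inducer NOXA, had ratios of 1.14 on 45 UMIs and 0.192 (0.0523 to 0.493) on 4 UMIs. Cytosolic heat shock genes had medians of -0.15 and 0.09, and the integrated stress response list -0.31 and -0.25.

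The nuclear RNA of the set was as varied in genes as that of the other barcodes. Thinned to 250 nuclear-encoded UMIs, members had a median of 220 genes at 0 mM, against 216 in the other barcodes, and 217 against 220 at 2 mM. Without thinning the medians were 644 and 1880 genes at 0 mM, and 438 and 1507 at 2 mM. Thinned to 500 UMIs of all genes, members had fewer genes, 360 against 389 at 0 mM and 336 against 397 at 2 mM. The smaller number of genes at 500 UMIs thus came with the mitochondrial UMIs in that total.

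At 0 mM the members resembled each other more than the other barcodes did. This was measured as the variance over the mean of a list's UMIs between barcodes at 250 nuclear-encoded UMIs each, which is near 1 when barcodes differ by counting alone. For G2/M genes it was 1.12 in the 99 members (0 to 7 UMIs), 4.58 in the other barcodes (0 to 19 UMIs) and 5.02 in other barcodes of matched depth. For interferon response genes it was 1.02, 4.72 and 3.52 in the same order, for HLA class I 0.946, 2.36 and 1.67, and for ribosomal proteins 1.79, 4.42 and 4.82. A mean of 2.67 G2/M UMIs was spread evenly over the members, of which 9.09% had none. In the other barcodes the mean was 1.68 and 42.2% had none, and a lower mean by itself leaves more barcodes at 0. MALAT1 varied more in the members than in all other barcodes, at 8.51 against 5.16, but less than in those of matched depth, at 11.3. Without the barcode with the most MALAT1 in each set, the values were 4.44, 4.64 and 8.74.

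At 2 mM this held for some lists only. Interferon response genes had a variance over mean of 1.43 in the 47 members and 5.64 in the other barcodes, and HLA class I 0.662 and 2.44. The G2/M list had 3.38 and 3.33, and 1.79 in the members without the 1 barcode with 16 G2/M UMIs. Ribosomal proteins had 2.93 and 3.16. MALAT1 and complexes II to V varied more in the members, at 12.4 against 3.49 and at 1.76 against 1.40. Without the barcode with the most MALAT1 in each set, its values were 6.92 and 3.39. Among other barcodes of matched depth, 61.9% at 0 mM and 46.6% at 2 mM lay 1 base from another barcode of the library, and the part of this in their values was not tested.

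**Figure D5:**
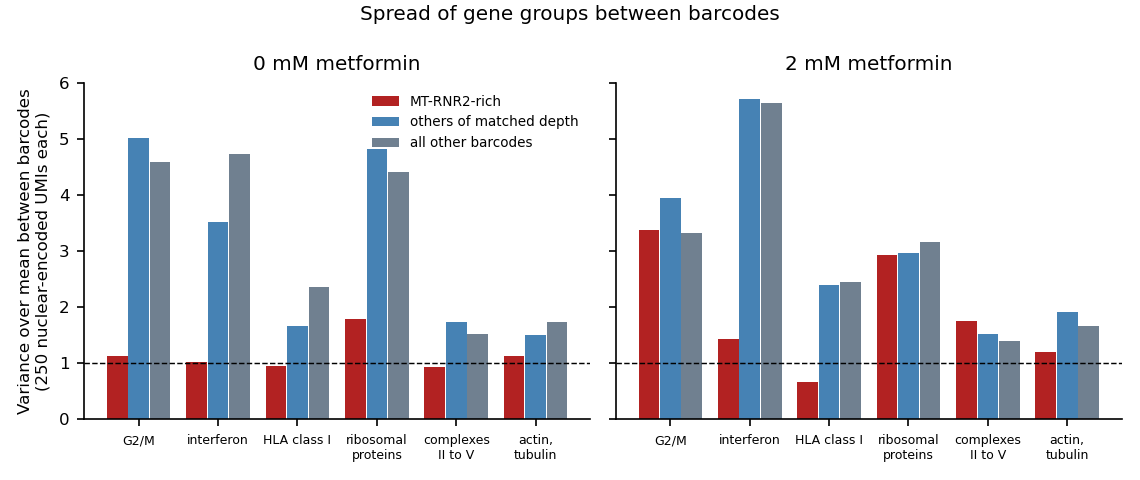
Variance over mean of the UMIs of 6 gene lists between barcodes thinned to 250 nuclear-encoded UMIs (bars from 0, dashed line at 1), for MT-RNR2-rich barcodes, other barcodes of matched depth and all other barcodes. At 0 mM the bars of the set (red) lie between 0.936 and 1.79, each below both bars beside it.

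Between doses, mitochondrial mRNAs of the MT-RNR2-rich barcodes were higher at 2 mM. Of 366 nuclear-encoded genes compared within the set, 13 were called higher at 2 mM than at 0 mM (3.55%) and 37 lower (10.1%). All 13 mitochondrial mRNAs were above 1 and 11 were called, with a median log2 ratio of 1.44. With an MT-RNR2 limit of 3% in place of 5% this median was 0.65. In the other barcodes of the same libraries their ratios lay between 0.754 and 1.42. MT-CO1 stood at 11419 CPM at 2 mM and 2979 at 0 mM (ratio 3.83, 3.28 to 4.48), MT-ATP8 at 3072 and 513 CPM (ratio 5.99, 4.23 to 8.61), and MT-RNR1 at 3045 and 862 CPM (ratio 3.53, 2.62 to 4.77). MT-RNR2 itself, held to the same limit in both sets, had a ratio of 1.06. The members at 2 mM were shallower (median 690 against 1019 UMIs), and with 1 library per dose the dose and the library cannot be told apart.

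Of nuclear-encoded genes, the acute-phase protein SAA1 was higher at 2 mM in the set (4051 against 1113 CPM, ratio 3.64, 2.81 to 4.73) and in the other barcodes (ratio 2.39). The calcium-binding S100A4 was likewise higher in both (2.33 and 2.09). The translation factor EIF5B (2.61 in the set and 1.44 in the others), the antiproliferative BTG1 (2.49 and 1.38), fibronectin FN1 (2.49 and 1.91) and the histone chaperone NAP1L1 (1.97 and 1.06) followed. On the low side, ACTB, cytoplasmic actin, stood at 381 CPM at 2 mM and 1091 at 0 mM (ratio 0.349, 0.184 to 0.613), close to its ratio of 0.422 in the other barcodes. PTTG1IP (0.192 in the set, 0.870 in the others), the kinesin KIF5B (0.223 and 0.763), the vesicle coat GTPase SAR1A (0.267 and 0.625) and the interferon-induced IFIT3 (0.297 and 0.884) and IFIT2 (0.340 and 0.943) were lower in the set, on 5 to 12 UMIs at 2 mM. Of 6 interferon response genes compared, 4 were called lower, against 10.1% of all nuclear-encoded genes compared. The UMI minimum favours such low calls, as stated above. Without the deepest member of each library, 5 genes in place of 13 were called higher, and the median of the mitochondrial mRNAs was 1.52.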

How the data were processed

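The authors deposited UMI counts (whole numbers) for 19826 genes in 2000 barcodes, 1000 of each library, and every column was mapped to a library by the start of its name. Tools named in the submitters' processing notes are bcl2fastq and STAR 2.5.0a, with the build hg19. Annotation, strand use, UMI collapsing, barcode choice and doublet removal were not given in the sources used here. No doublet caller was run. No coordinates are printed, since the genome at hand was GRCh38.

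A barcode entered from 500 UMIs and 300 genes, and the entering barcodes were split at 5% MT-RNR2. Counts were summed over the barcodes of each set, per library, and divided by nuclear-encoded UMIs (CPM). Ratios have exact conditional Clopper-Pearson intervals and shares exact binomial ones, at a level of 95%. These leave out the spread between barcodes and between cultures. The interval code was tested on simulated data. A gene was called at a ratio of 2 either way, from 100 CPM in either set and 50 UMIs over both. A sum of 0 was set to 3 counts for a ratio, and never past 1. The comparison set of matched depth, 113 and 268 barcodes, held other barcodes between the 5th and 95th percentile of the members' nuclear-encoded UMIs. Within that range they were deeper than the members, with medians of 1108 against 842 at 0 mM and 874.5 against 547 at 2 mM. Thinning drew UMIs without replacement.

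The members and the 36 gene lists were chosen with earlier results of these data known. Named genes are all mitochondrial and MTRNR2L genes with 20 UMIs, the 12 highest and 12 lowest by the interval bound nearest 1 in the weaker library, up to 3 at each end of each list, the 6 highest and 6 lowest between doses, and all nuclear-retained RNAs, snoRNA hosts and markers; of these, those with most counts are described, and 2 of the 12 lowest are not reported here. Transcript lengths are those of the longest GENCODE 29 transcript. Python 3.11.15, numpy 2.4.6, scipy 1.17.1, pandas 2.3.3 and edgeR 4.0.16 (TMM factors only) were used. A further 11 planned and 5 added alternatives were run.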

Additional observations from a re-analysis of the deposited data

Results flagged for a closer look

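The mitochondrially encoded mRNAs had a median log2 ratio, MT-RNR2-rich over other barcodes, of -0.33 in the 0 mM library (10 of 13 genes below 1) and of 1.29 in the 2 mM library (13 of 13 above 1). The opposite directions in the 2 libraries drew attention to this result. With 1 library per dose, the difference was not tested. The members at 2 mM were shallower, with a median of 690 UMIs against 1019, and 7 of 47 had 8% or more of their UMIs from these mRNAs, against 1 of 99. The part of depth in the difference was not tested, and with a floor of 774 UMIs in both libraries the medians were -0.33 and 1.5.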

How the results depend on the processing

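The counts of called genes depended on the minimum and on the limits of the sets more than any other result, and 47 members are few for most genes: a gene at 100 CPM had about 4 UMIs in the 2 mM set. Numbers of genes called higher at 0 mM, higher at 2 mM, lower at 0 mM and lower at 2 mM were, against 216, 598, 122 and 354 as reported, 100, 270, 189 and 474 scaled by all UMIs, and 26, 59, 17 and 137 against others of matched depth. They were 30, 209, 34 and 181 at an MT-RNR2 limit of 3%, 408, 980, 253 and 311 at 10%, 328, 1029, 186 and 392 from 1000 UMIs, and 1382, 1776, 807 and 652 with 20 UMIs and no CPM minimum. With the minimum on the other barcodes only, an alternative chosen after seeing the data, they were 41, 116, 122 and 354, and at 500 CPM there, also chosen after seeing the data, 0, 3, 2 and 27. The cause was not tested, except that fewer genes enter under stricter minimums.

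List medians moved as follows. At an MT-RNR2 limit of 3% the mitochondrial mRNAs had 0.0805 at 0 mM, complexes II to V -0.23 at 0 mM, and ribosomal proteins -0.0052 at 0 mM and 0.0731 at 2 mM. At 10%, ribosomal proteins had -0.33 at 0 mM and mitochondrial ribosomal proteins 0.00 at 2 mM. Scaled by all UMIs, ribosomal proteins had -0.38 and -0.34, the proteasome -1.03 at 2 mM and mitochondrial ribosomal proteins -0.76 at 2 mM. With TMM factors, ribosomal proteins had -0.30 and -0.28 and the proteasome -1.02 at 2 mM. Against others of matched depth, nuclear-retained RNAs had 0.0723, ribosomal proteins -0.11 and mitochondrial ribosomal proteins 0.0874 at 0 mM, the first on 2 genes and the last on 3. From 1000 UMIs, at 2 mM, nuclear-retained RNAs had 0.41 and mitochondrial ribosomal proteins -0.022. At 500 CPM in the other barcodes complex I had -0.68 at 0 mM on 2 genes.

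The share of MT-RNR2-rich barcodes was 13.8% and 7.16% at 3%, 6.0% and 2.72% at 10%, 5.83% and 1.25% from 1000 UMIs, and 2.15% at 2 mM with the floor of the 0 mM library. Between doses, genes called higher and lower were 27 and 64 at 3%, 4 and 12 at 10%, 101 and 185 without a CPM minimum, and 5 higher without the deepest members, and the median of mitochondrial mRNAs was 0.65 at 3% and 1.14 without members of 8% or more mitochondrial mRNA. Median UMIs of members were 1105.5 (0 mM) at 3%, 1152 (0 mM) and 1472 (2 mM) from 1000 UMIs, and 1034 (2 mM) with the floor of 774 UMIs. Those of other barcodes were 4227 (0 mM) and 3025 (2 mM) with barcodes 1 base apart merged, and at 2 mM 3117.5 from 1000 UMIs and 2878 with that floor. CENPE at 2 mM had a log2 ratio of -0.24 at a limit of 10%. No paired analysis was possible because each dose had 1 library. No replicate could be left out for the same reason.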

Other observations

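Groups not described above lay near the median of all genes (0.05 at 0 mM and 0.19 at 2 mM) or below it. Of all genes, 8.5% and 20.2% were called higher and 4.8% and 12% lower. Median log2 ratios of MT-RNR2-rich over other barcodes were, at 0 mM and 2 mM, 0.11 and 0.08 for S phase genes, 0.07 and 0.28 for translation factors, and 0.07 and 0.14 for chromatin and high mobility group genes. Immediate early and other short-lived mRNAs had -0.12 (0 of 14 called) and 0.26 (1 of 13 higher). Genes of actin, tubulin and filaments had -0.24 (0 of 35 called) and -0.27 (3 of 35 lower), and of translocation and folding in the endoplasmic reticulum -0.31 and -0.09. Acute-phase and chemokine genes had -0.42 (0 of 7 called) and -0.31 (2 of 9 lower). Nuclear-encoded genes of mitochondrial RNA handling, such as processing and polyadenylation factors, had -0.26 (0 of 8 called) and -0.56 (1 of 10 higher and 1 lower). At 2 mM, 9 of these 10 had a ratio below 1. No mitochondrial tRNA gene and no gene of the list of small nuclear RNAs without a poly(A) tail had counts enough to be compared.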
